A study of Mus musculus with 8 samples.

Results

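The 10 genes described here encode core and naive pluripotency factors of mouse embryonic stem cells: Pou5f1, Sox2, Nanog, Klf2, Klf4, Tdgf1, Tbx3, Zfp42, Prdm14 and Sall4. They were picked by name for their known role, with earlier results of these data known. All 10 were found among the 21896 protein-coding genes with placed coordinates in RefSeq's GRCm38.p6 table (mm10 is the same assembly). Sites of METTL3 and METTL14 had been mapped by CUT&RUN, in which an antibody directs a nuclease to the chromatin around its target and the released DNA is sequenced. Each of the 8 libraries was deposited as a list of called peaks. Every gene was scored for peaks inside it, within 2 kb of either boundary, and within 20 kb.

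All libraries came from C57BL/6 embryonic stem cells kept in medium with serum, LIF at 1000 U/ml, the GSK3 inhibitor CHIR99021 at 3 μM and the MEK inhibitor PD0325901 at 1 μM. LIF and these inhibitors favour the naive state. A rabbit antibody to METTL14 was applied to cells labelled Mettl3 control and to cells labelled Mettl3 CKO. A rabbit antibody to METTL3 was applied to cells labelled Mettl14 control and Mettl14 CKO. Each of the 4 groups had 2 libraries. The labels do not spell out CKO, and do not say how the cells were made or whether a line is a single clone. Nor do they say that replicates were grown separately. The p-values therefore measure only the spread between these libraries, which may be technical. Expression was not measured, so neither the cell type nor the loss of Mettl3 or Mettl14 could be checked from markers.

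METTL3 and METTL14 form the heterodimer that writes N6-methyladenosine on nascent RNA, with METTL3 as the catalytic subunit. POU5F1 (OCT4), SOX2 and NANOG form the centre of the pluripotency network, bind jointly at enhancers, and activate one another's genes. KLF2, KLF4, TBX3 and PRDM14 hold the naive state under LIF, WNT and low MEK signalling. In embryonic stem cells many of these genes are driven by enhancers outside the gene, such as the distal enhancer upstream of Pou5f1, an enhancer upstream of Nanog, and the Sox2 control region far downstream of Sox2.

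METTL14 peaks numbered 3129 in control replicate 1, 3546 in control replicate 2, 3922 in CKO replicate 1 and 1439 in CKO replicate 2. The METTL3 lists held 242 to 353. The lists give presence only: every peak has the same score, and read depth is unknown. A gene without a peak is therefore one where no signal passed the authors' threshold, and a short list can miss it for want of depth. Beside each count of the 10 genes stands the share of all protein-coding genes with a peak by the same rule.

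METTL14 peaks lay near 5 or 6 of the 10 pluripotency genes in each METTL14 library, mostly outside the genes. Within 20 kb, 6 of the 10 genes had a peak in control replicate 1 (16.3% of all protein-coding genes), 6 in control replicate 2 (18.8%), 6 in CKO replicate 1 (21.3%) and 5 in CKO replicate 2 (8.61%). Within 2 kb the counts were 5 (9.71% of all), 3 (11.2%), 5 (12.9%) and 4 (4.91%). Inside the gene itself they were 2 (6.44%), 1 (7.21%), 2 (8.05%) and 2 (2.89%). The 4 libraries thus gave similar counts in the wide window although the lists held 1439 to 3922 peaks. The median length was 6.85 kb for the 10 genes and 17.1 kb for all protein-coding genes, so the windows around the 10 genes were not wider than those around most genes.

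The counts depended on how far down each list peaks were taken. When every METTL14 list was shortened to its first 1439 peaks in file order, 2 of the 10 genes had a peak within 20 kb in control replicate 1 (7.52% of all), 2 in control replicate 2 (7.48%) and 2 in CKO replicate 1 (7.86%), against the 5 of CKO replicate 2. Those were Nanog and Sall4 in control replicate 1, and Nanog and Klf2 in the other two. The sources used here do not give the meaning of the file order.

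**Figure D1:**
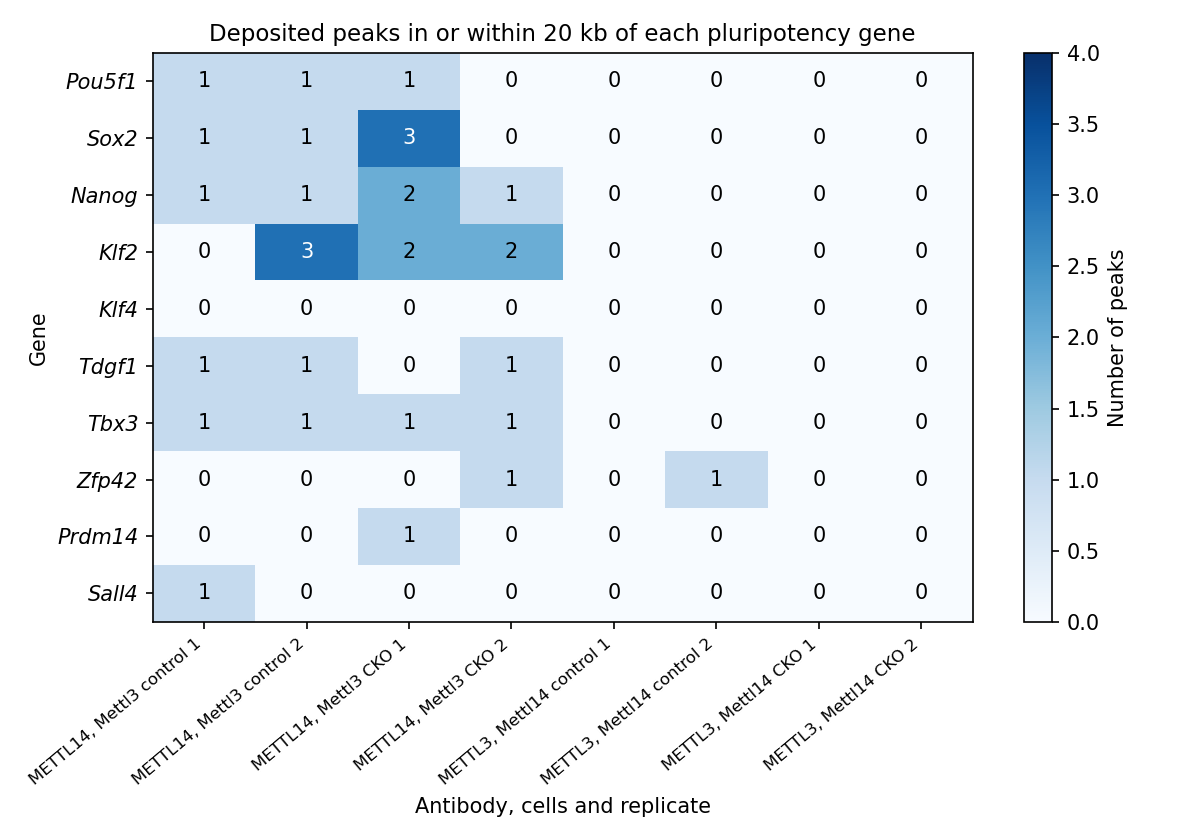
Number of deposited peaks in or within 20 kb of each of the 10 genes (rows) in each of the 8 libraries (columns), with the number also given by colour. Nanog and Tbx3 have METTL14 peaks in all 4 METTL14 libraries, Klf4 has none in any library, and the only METTL3 peak is at Zfp42.

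The promoter stretches below are those in which a METTL14 peak fell on the 250 bases before the first start listed for the gene. RefSeq promoter sequences (GRCm38.p6) matched 7 of the 10 genes, and 3 of the 7 had such a peak in at least 1 METTL14 library, against 8.38% of the 17491 protein-coding promoters in the table. Each is printed on the gene's own strand, 5′ to 3′, with the bases covered by a METTL14 peak in capitals. The Klf2 stretch is chr8:72318812-72319061 (plus strand), the Nanog stretch is chr6:122707239-122707488 (plus strand) and the Zfp42 stretch is chr8:43307010-43307259 (minus strand).
Klf2: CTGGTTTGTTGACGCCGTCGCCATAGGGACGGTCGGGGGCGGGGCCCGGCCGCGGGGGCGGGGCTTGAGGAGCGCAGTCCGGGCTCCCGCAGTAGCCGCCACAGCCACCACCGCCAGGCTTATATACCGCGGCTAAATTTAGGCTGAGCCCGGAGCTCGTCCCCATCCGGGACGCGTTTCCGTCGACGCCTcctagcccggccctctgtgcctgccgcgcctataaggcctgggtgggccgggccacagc
Nanog: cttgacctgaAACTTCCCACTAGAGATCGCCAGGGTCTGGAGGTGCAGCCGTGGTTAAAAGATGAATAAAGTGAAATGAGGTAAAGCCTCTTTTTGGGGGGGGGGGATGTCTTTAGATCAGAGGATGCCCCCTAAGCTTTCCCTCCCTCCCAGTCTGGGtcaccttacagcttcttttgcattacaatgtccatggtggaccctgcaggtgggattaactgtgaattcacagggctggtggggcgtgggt
Zfp42: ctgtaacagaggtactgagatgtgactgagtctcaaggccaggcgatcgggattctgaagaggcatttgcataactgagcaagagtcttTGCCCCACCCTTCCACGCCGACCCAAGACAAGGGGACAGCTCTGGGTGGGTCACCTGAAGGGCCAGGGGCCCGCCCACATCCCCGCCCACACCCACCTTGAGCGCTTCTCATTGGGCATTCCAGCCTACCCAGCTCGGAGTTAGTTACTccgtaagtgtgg

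In the Klf2 stretch 191 bases were covered, by peaks of control replicate 2 and CKO replicate 1. In the Nanog and Zfp42 stretches 149 bases were covered, in each by 1 peak of 1 library (CKO replicate 1 and CKO replicate 2). The 3 promoters did not share a base composition. The G+C content was 71.2% at Klf2, 52.0% at Nanog and 58.4% at Zfp42, where the median of 17491 protein-coding genes was 55.2%. The most G+C-rich promoters of the 7, Klf4 (74.0%) and Sox2 (72.0%), had no METTL14 peak on them. Short motifs were searched on both strands of the 250 bases, with overlaps between motifs allowed, and were chosen with the peak positions known. The GC box GGGCGG, bound by SP and KLF factors, had 2 matches inside the covered bases of Klf2 and 2 in those of Zfp42, and none at Nanog. It occurs in 42.7% of all promoters of this length. The CACCC box (letters CACCC) had 3 matches within the covered bases of Zfp42 and 1 outside the covered bases of Klf2, and occurs in 53.2% of all promoters. The CCAAT box (letters CCAAT) had 1 match, within the covered bases of Zfp42, and occurs in 36.3% of all promoters. The TATA box TATAAA and the E-box CACGTG had no match in the 3 promoters. The octamer ATGCAAAT, a recognition sequence of POU factors, matched exactly once, in the Zfp42 stretch outside the covered bases. It occurs in 1.61% of promoters. The Nanog stretch holds ttttgcat outside its covered bases, 1 letter from ATTTGCAT, the octamer on the other strand. Only exact matches were counted, so a motif without a match here may still have a variant in the stretch. A match is a description of the letters only.

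Nanog, the homeodomain factor that stabilises self-renewal, carried the most constant site within 20 kb of the 10 genes. The gene lies at chromosome 6: 122707489 to 122714633 on the plus strand. A METTL14 peak lay upstream of it in all 4 METTL14 libraries, with its centre 4674 bp before the start site in control replicate 1, 4673 bp in control replicate 2, 4664 bp in CKO replicate 1 and 4673 bp in CKO replicate 2. The 4 centres lay within 10 bp of one another, and the merged region was chromosome 6: 122702741 to 122702899. It overlapped no annotated gene, and Nanog was the nearest protein-coding gene. This was the only one of the 21 regions within 20 kb of the 10 genes that was called in all 4 METTL14 libraries. That is 4.76% of the regions, near the 5.2% of METTL14 regions within 20 kb of any protein-coding gene. In file order the peak stood at 33.0% and 11.8% of the control lists and at 11.8% and 28.3% of the CKO lists. A second peak, on the promoter printed above (chromosome 6: 122707249 to 122707397), was called in CKO replicate 1 only. Of all protein-coding genes, 4.89% had a METTL14 peak within 20 kb in each of the 4 libraries, and among the 10 genes Nanog and Tbx3 did.

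Klf2, a KLF factor induced by inhibition of MEK, had METTL14 peaks in 3 of the 4 METTL14 libraries. The gene lies at chromosome 8: 72319062 to 72321654. Control replicate 1 had no peak within 20 kb, and its nearest was 59472 bp away in Eps15l1. Control replicate 2 had 3 peaks within 20 kb, CKO replicate 1 had 2 and CKO replicate 2 had 2, so the counts of the control and CKO libraries overlapped. At the start site the peak centres lay 177 bp upstream in control replicate 2, 134 bp upstream in CKO replicate 1 and 393 bp downstream in CKO replicate 2. The first 2 overlapped and the third did not touch them. A further site lay past the end of the gene, with peaks starting 12423 bp from it in control replicate 2, 12483 bp in CKO replicate 1 and 12562 bp in CKO replicate 2. Together these spanned chromosome 8: 72334077 to 72334364, outside annotated genes and closer to Eps15l1 than to Klf2. The peaks of the CKO libraries overlapped there by less than 50% of their width. The third peak of control replicate 2, at chromosome 8: 72316393 to 72316541, was not found in another library.

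**Figure D2:**
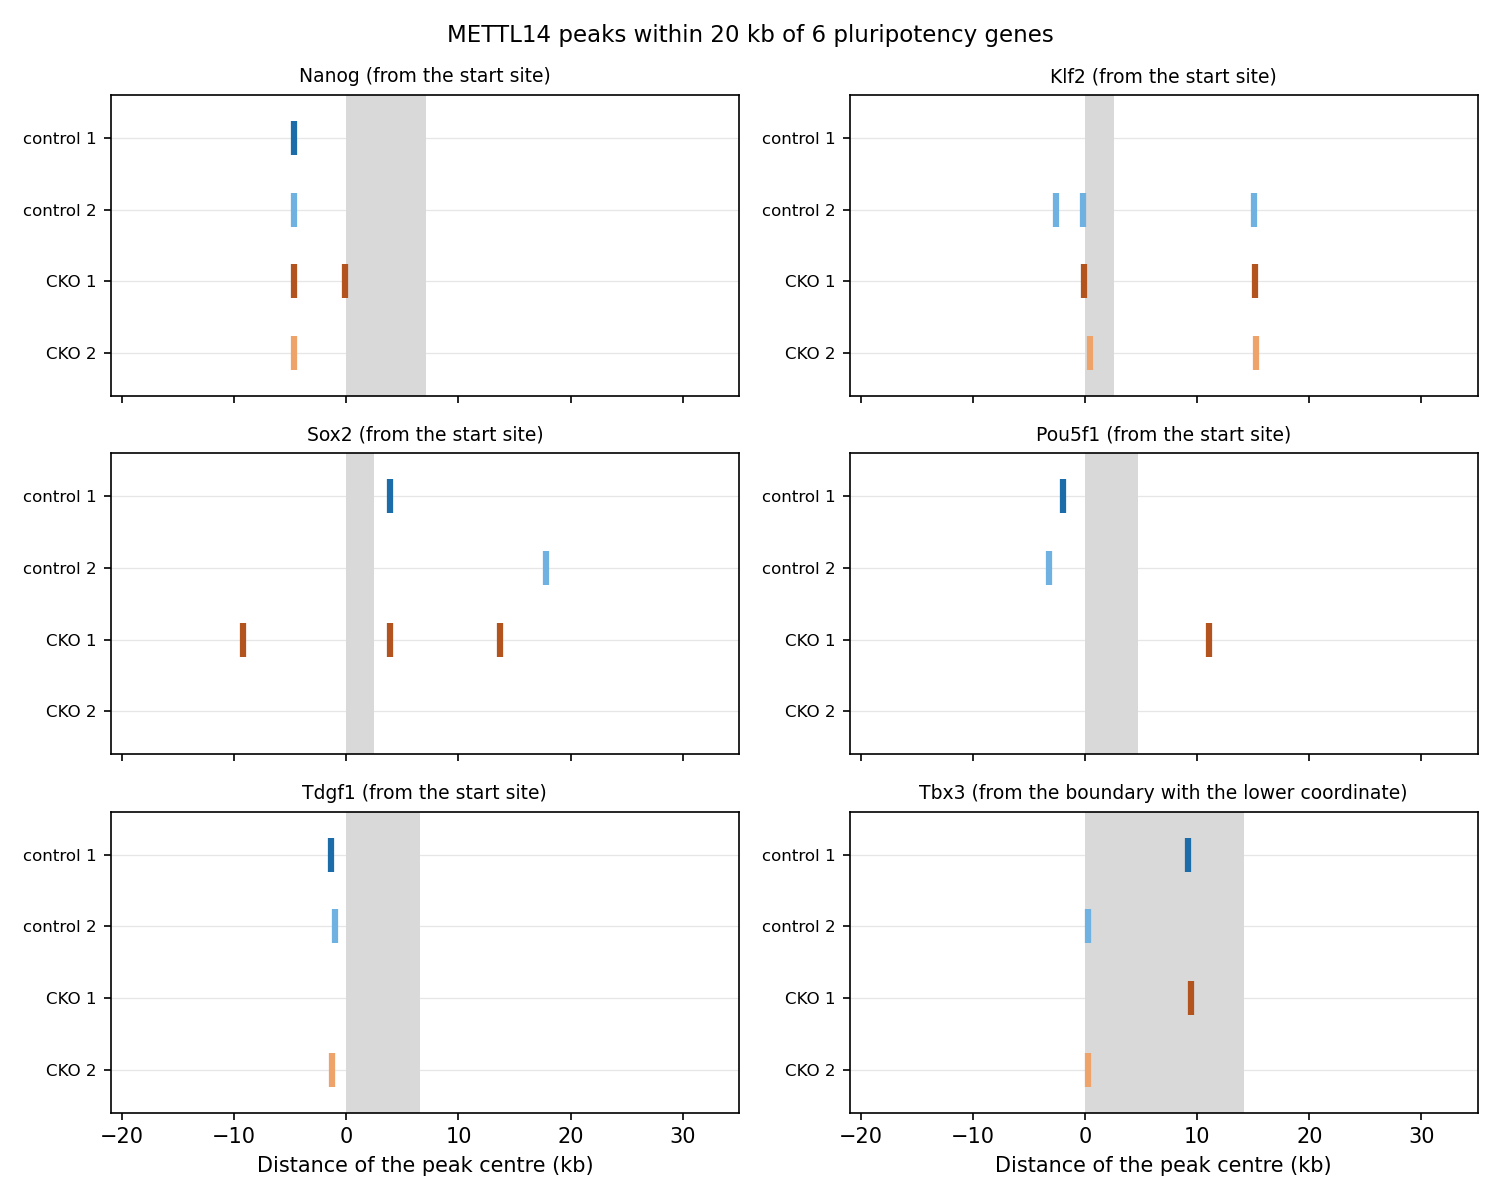
Positions of METTL14 peaks (ticks, at the peak centre) within 20 kb of 6 genes in the 4 METTL14 libraries, in kb from the annotated start site in the direction of transcription, or for Tbx3 from the boundary with the lower coordinate; grey marks the gene. The Nanog peak upstream of the start site lines up in all 4 libraries, whereas the peaks at Sox2 and Pou5f1 mostly do not.

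Tbx3, a T-box factor of the LIF response, was the only one of the 10 genes with a METTL14 peak inside it in all 4 METTL14 libraries. Of all protein-coding genes 1.32% had this. The gene spans chromosome 5: 119670534 to 119684724. The peaks lay at 3 places. Control replicate 2 and CKO replicate 2 shared a region at chromosome 5: 119670689 to 119670878, at the boundary with the lower coordinate, where the antisense transcript Tbx3os1 also lies. Control replicate 1 had a peak at 119679678 to 119679826 and CKO replicate 1 at 119679913 to 119680061, which did not overlap. So the gene was marked in all 4 libraries, but no position inside it was marked in both libraries of a genotype. Outside the 20 kb window, in a listing out to 150 kb chosen after the data were seen, a region at chromosome 5: 119710088 to 119710302 was called in all 4 METTL14 libraries. It lay 25364 to 25430 bp beyond the boundary with the higher coordinate, and Tbx3 was its nearest protein-coding gene. Exon and intron positions were not analysed here.

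Pou5f1, which encodes OCT4, had a METTL14 peak within 20 kb in both controls and in CKO replicate 1, at 3 different places. The gene lies at chromosome 17: 35506032 to 35510777. In control replicate 1 the peak centre was 1967 bp upstream of the start site (chromosome 17: 35503991 to 35504139), and in control replicate 2 it was 3255 bp upstream (35502703 to 35502851). Both fell within the gene model Gm32362. No enhancer annotation was used here to place these peaks against the distal enhancer. In CKO replicate 1 the peak was on the other side, 6239 bp from the gene and inside Cchcr1, with Tcf19 between Cchcr1 and Pou5f1. CKO replicate 2, the shortest list, had its nearest peak 416550 bp away.

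Sox2, the HMG-box partner of OCT4, had 5 METTL14 peaks within 20 kb in 3 libraries. It lies at chromosome 3: 34649995 to 34652461 with the long noncoding gene Sox2ot overlapping all 5 peaks. Control replicate 1 and CKO replicate 1 shared a region past the end of the gene (chromosome 3: 34653843 to 34653997), with peak centres 3922 and 3928 bp from the start site. The single peak of control replicate 2 (17786 bp downstream) and 2 further peaks of CKO replicate 1 (9231 bp upstream and 13684 bp downstream) were each called once. CKO replicate 2 had none. Beyond the window, control replicate 1, CKO replicate 1 and CKO replicate 2 each had 1 peak at 111133, 110717 and 108271 bp downstream of the start site. These did not overlap one another, and Sox2 was their nearest protein-coding gene. They lie on the side of Sox2 on which its control region is known, and overlap with that enhancer was not determined here.

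Tdgf1 encodes the NODAL co-receptor CRIPTO and is a classic OCT4 target. It lies on the minus strand at chromosome 9: 110939608 to 110946158. METTL14 peak centres lay upstream of the start site at 1351 bp in control replicate 1, 1011 bp in control replicate 2 and 1301 bp in CKO replicate 2. Those of control replicate 1 and CKO replicate 2 overlapped (chromosome 9: 110947385 to 110947583), and that of control replicate 2 was separate. CKO replicate 1, the longest list, had no peak nearer than 206690 bp. In file order the Tdgf1 peak stood at 54.2% of the list in control replicate 1, 73.0% in control replicate 2 and 97.7% in CKO replicate 2.

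The last 4 genes were marked in 1 METTL14 library or in none. Zfp42 (REX1), a marker of the naive state at chromosome 8: 43295067 to 43307009, had a METTL14 peak in CKO replicate 2 only, on the promoter printed above, with its centre 87 bp before the start site. In the other METTL14 libraries the nearest peak was 46667 to 1756215 bp away. Prdm14, a PR-domain factor that represses differentiation genes, had 1 peak inside the gene in CKO replicate 1 (chromosome 1: 13125556 to 13125704). Sall4, a zinc-finger partner of OCT4 and NANOG, had 1 peak in control replicate 1 (chromosome 2: 168767025 to 168767173), at the boundary of Sall4 with the higher coordinate and overlapping the gene model Gm14261. Klf4, a KLF factor under STAT3 control, had no peak within 100 kb in any of the 8 libraries. Its nearest METTL14 peak was 2141043 bp away in control replicate 1, 392339 bp in control replicate 2, 534817 bp in CKO replicate 1 and 2248682 bp in CKO replicate 2.

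**Figure D3:**
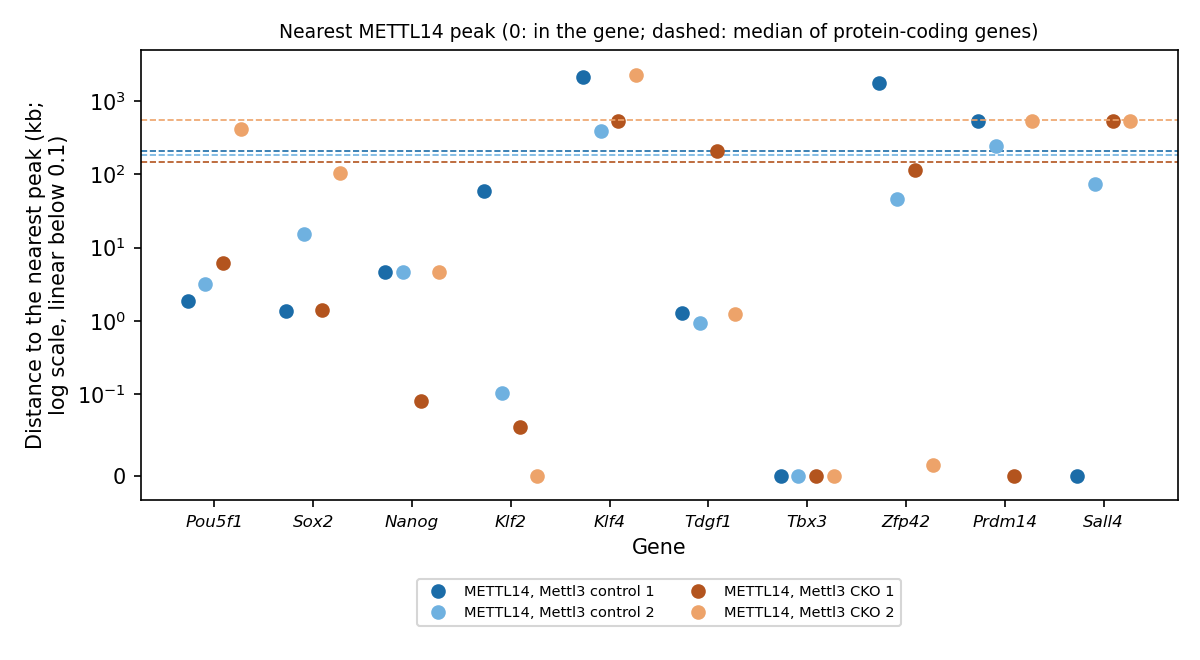
Distance in kb from each of the 10 genes to its nearest METTL14 peak in each METTL14 library, on a log scale that is linear below 0.1, with 0 for a peak in the gene. Dashed lines give the median of all protein-coding genes in the library of the same colour; Klf4 lies above the median in all 4 libraries, and Pou5f1, Sox2, Nanog, Klf2 and Tbx3 lie below it in all 4.

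Measured without a window, the median distance from the 10 genes to the nearest METTL14 peak was 3.25 kb in control replicate 1, 9.92 kb in control replicate 2, 3.81 kb in CKO replicate 1 and 55.2 kb in CKO replicate 2. The medians over all protein-coding genes were 212, 182, 147 and 551 kb. In those libraries 7, 8, 7 and 9 of the 10 genes lay nearer to a peak than the median protein-coding gene. The largest of the 4 medians belonged to the shortest list.

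The 30 METTL14 peaks within 20 kb of the 10 genes formed 21 regions when overlapping peaks were merged. Of these 15 were called in 1 library, 4 in 2 libraries, 1 in 3 and 1 in 4. The share in 1 library only was 71.4%, near the 70.1% of the 6890 METTL14 regions within 20 kb of any protein-coding gene. Both control libraries shared 1 of the 21, at Nanog, and both CKO libraries shared 2, at Nanog and past the end of Klf2. Around all protein-coding genes 13.1% of regions were shared by both controls, 10.4% by both CKO libraries and 5.2% by all 4 libraries. A METTL14 peak within 20 kb was present in both controls at 5 of the 10 genes (Pou5f1, Sox2, Nanog, Tdgf1 and Tbx3), against 9.95% of all protein-coding genes. It was present in both CKO libraries at 3 (Nanog, Klf2 and Tbx3), against 7.12% of all.

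Whether METTL14 peaks at these genes depend on Mettl3 was asked by comparing the 2 control with the 2 CKO libraries. The number of genes with a peak within 20 kb was 6.0 ± 0.0 for control cells and 5.5 ± 0.71 for CKO cells (mean ± SD, n = 2 each), a difference of -0.5 genes (two-sided exact permutation p = 1). Within 2 kb it averaged 4.0 ± 1.41 in control and 4.5 ± 0.71 in CKO cells (difference 0.5, exact permutation p = 1). Inside the gene it averaged 1.5 ± 0.71 and 2.0 ± 0.0 (difference 0.5, exact permutation p = 1). The number of peaks within 20 kb was 6 and 8 in control and 10 and 6 in CKO libraries (difference 1.0, exact permutation p = 1). The median of the log10 distance was 3.7 ± 0.32 in control and 3.91 ± 0.62 in CKO cells (difference 0.21, exact permutation p = 1). For the numbers of peaks and of genes, and for the distances, the control and CKO values touched or overlapped. With 2 libraries a group these tests cannot go below p = 0.333, and after Benjamini-Hochberg adjustment over the 9 tests run every exact permutation p was 1. The direction of the 20 kb gene count turned when the lists were shortened (difference 1.5), and the difference was 0 without CKO replicate 2. The peak count difference was -1.0 without CKO replicate 1.

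**Figure D4:**
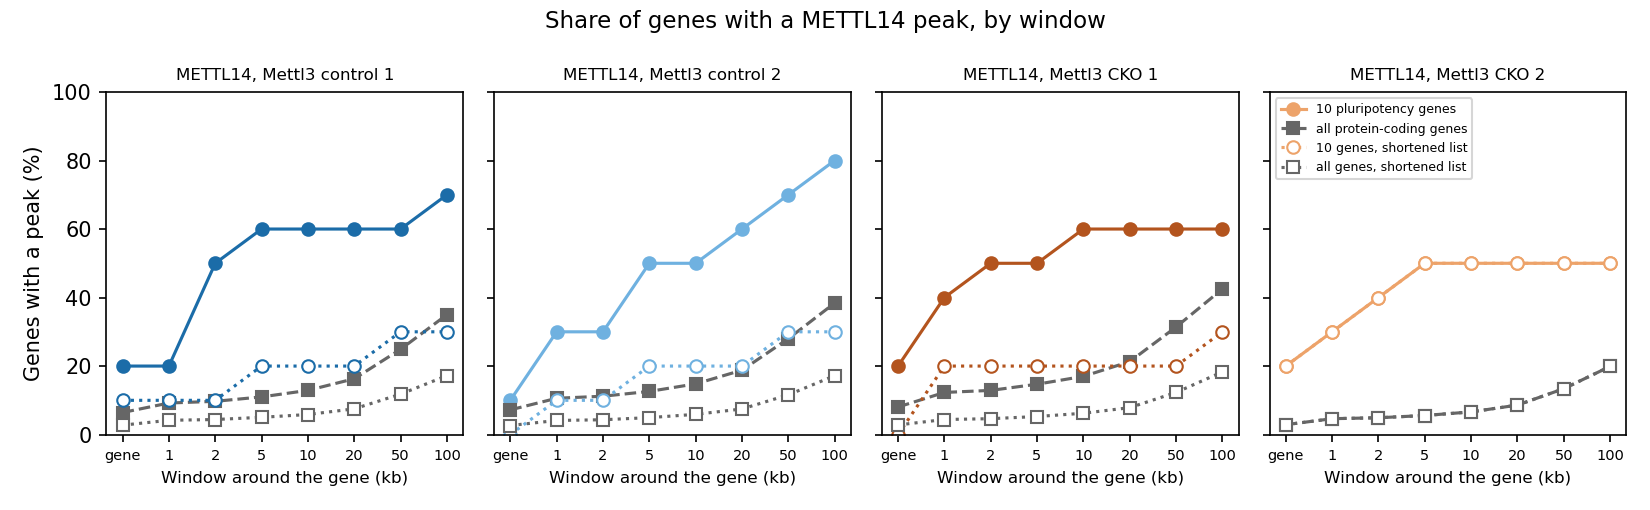
Share of the 10 pluripotency genes (circles) and of all protein-coding genes (squares) with a METTL14 peak inside the gene or within windows of 1 to 100 kb, in each METTL14 library. Filled symbols use the whole list and open symbols its first 1439 peaks; with whole lists the 10 genes lie above all genes in each library and window, and with shortened lists the gap is smaller in the first 3 libraries. Inside the gene it turns in control replicate 2 and CKO replicate 1, where none of the 10 genes and 2.65% and 2.81% of all genes have a peak.

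With the METTL3 antibody the pluripotency genes were almost without peaks. Within 2 kb none of the 10 genes had a METTL3 peak in any of the 4 METTL3 libraries. The share of all protein-coding genes was 0.63% and 0.566% in the Mettl14 control libraries and 0.393% and 0.585% in the Mettl14 CKO libraries. Within 20 kb 1 gene had a peak in control replicate 2 (1.01% of all), and none in control replicate 1 (1.15%), CKO replicate 1 (0.712%) or CKO replicate 2 (1.02%). That peak lay 14379 bp from Zfp42 at chromosome 8: 43321388 to 43321664, on its upstream side, and no METTL14 library had a peak there. The difference between CKO and control was -0.5 genes within 20 kb (exact permutation p = 1). With background shares of this size, a count of 0 among 10 genes is near the background, and an absence at these genes cannot be told apart from the small number of METTL3 calls. In control cells the METTL14 antibody marked 6 and 6 of the 10 genes and the METTL3 antibody 0 and 1 within 20 kb. Antibody, cell line and list length all differ between these libraries and cannot be told apart.

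The wider pluripotency network was described with a list of 39 other genes, which included naive factors, signalling components and targets. Within 20 kb, 11 and 18 of the 39 had a METTL14 peak in the controls and 13 and 8 in the CKO libraries, where all protein-coding genes had 16.3%, 18.8%, 21.3% and 8.61%. As shares of the list these were 28.2%, 46.2%, 33.3% and 20.5%. The difference between CKO and control was -4.0 genes (exact permutation p = 0.667), within the spread between libraries, and was -0.5 without control replicate 2. Within 2 kb, 6 of the 39 had a METTL14 peak in both controls (15.4%, against 5.37% of all protein-coding genes). In both CKO libraries 4 had one (10.3%, against 3.91% of all). Genes with a METTL14 peak within 2 kb in both libraries of a genotype were Gbx2, Jarid2, Etv5, Fbxo15, Tfap2c and Dusp6. Gbx2, a homeobox gene downstream of STAT3, had a peak in all 4 METTL14 libraries, 159 to 171 bp beyond its boundary with the higher coordinate. Tfap2c, which encodes the AP-2γ factor of naive cells and germ cells, had peaks in both controls and in CKO replicate 1. Dusp6, a target and inhibitor of ERK signalling, had one in each control, 1539 and 1167 bp from the gene, and none in the CKO libraries. How many of all protein-coding genes show this pattern was not counted, and the list of CKO replicate 2 held only 1439 peaks. Etv5, an ETS factor, was marked in each METTL14 library at a different position.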

How the data were processed

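Peak lists of 8 CUT&RUN libraries, 2 per group, were used as deposited. Per the submitters' processing notes the authors used HOMER, SAMtools, Bowtie2 2.4.1, Trimmomatic 0.38 and CASAVA (the notes assign no roles), and the build was mm10. The sources used here give no peak threshold, background library or depth. The deposited lists give start and end positions, and the deposited score was 1 for every peak, so it was not used.

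Gene positions were those of RefSeq's GRCm38.p6 table, and 21 entries without placed coordinates were left out. A gene counted as marked when at least 1 bp of a peak lay in its window (Python 3.11.15, pandas 2.3.3). Distances run from the gene boundary to the nearest peak end. Strand was known only for genes with a promoter sequence in the RefSeq table. Groups were compared by two-sided exact permutation of the 4 libraries of an antibody. The counting was tested on simulated data. The 10 genes and the gene lists were chosen with earlier results of these data known. All 10 were named. Of the other network genes, those with a peak within 2 kb in both libraries of a group were named, at most 8, nearest first. Of the formative and primed genes, only those with a peak within 20 kb in all 4 METTL14 libraries were named. For the Otx, Zic and Pou3f list only a count was given. Alternatives covered other windows, shortened lists, widened peaks, peak centres, a replicate block, each library left out and other gene backgrounds; the listing of peaks out to 150 kb was added after the data were seen. List order ran in 76 to 202 blocks, each sorted by chromosome and position, so ranks within a block carry no order.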

Additional observations from a re-analysis of the deposited data

How the results depend on the processing

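The exact permutation p of every tested difference (CKO minus control) stayed above 0.05 under every alternative run, and 2 libraries a group allow no other outcome. The differences themselves changed size or direction under some alternatives. With lists shortened to the shortest of the antibody, the METTL14 difference turned to 1.5 genes within 20 kb. Within 2 kb it kept its direction and grew from 0.5 to 2.0. The difference for the 39 other network genes turned to 1.5, and the log10 distance difference turned to -0.52. The METTL3 difference within 20 kb was 0. A 10 kb window gave 0 for METTL14 and 0 for METTL3, and a 5 kb window gave -0.5 in place of 0.5. Windows of 50 and 100 kb gave larger METTL14 differences of -1.0 and -2.0 genes, in place of -0.5. Peaks widened by 500 bp gave a METTL14 difference of 1.5 in the gene, in place of 0.5. Shortening removes peaks by construction, and it left the list of CKO replicate 2, the shortest METTL14 list, unchanged. That library kept its 5 genes within 20 kb, and each other METTL14 library fell to 2. The cause of the other changes was not tested. Leaving out 1 library at a time gave -1.0 to 0 genes within 20 kb, -0.5 to 1.5 within 2 kb (-0.5 without control replicate 2), 0 to 1.0 in the gene, -1.0 to 3.0 peaks, -7.5 to -0.5 other genes and -0.23 to 0.65 for the log10 distance, where -0.02 was without control replicate 1 and -0.23 without CKO replicate 2. For METTL3 it gave -1.0 to 0 within 20 kb, and 0 throughout within 2 kb and in the gene. With the replicate block, in which labels are exchanged only within a replicate number, the METTL14 differences were -0.5 within 20 kb, 0.5 within 2 kb and 0.5 in the gene (smallest possible exact permutation p 0.5), and it changed no call. Gene by gene, the deviations of same-numbered libraries were nearly uncorrelated (correlation across genes -0.034 for METTL14 and 0.051 for METTL3). A correlation takes out a shift common to all genes of a library, so a shared batch was not tested. Regions shared by both libraries of a group numbered 3 at 1 bp overlap (the Nanog region counted in each genotype) and 2 at 50% reciprocal overlap. The share of all genes with a peak within 20 kb was 6.23% to 14.9% over all RefSeq genes and 9.22% to 22.8% without olfactory, vomeronasal and keratin-associated families. Depth is unknown, so a gene without a peak may lie below the threshold.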

Other observations

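One region of the wider network list was called with both antibodies in all 8 libraries. It lies inside Jarid2, which encodes a Polycomb-associated factor and spans chromosome 13: 44730774 to 44921643. The METTL14 peaks there ran from 44869546 to 44869694 in control replicate 2 to 44869591 to 44869739 in CKO replicate 2, and the METTL3 peaks from 44869467 to 44869743 in control replicate 2 to 44869523 to 44869789 in CKO replicate 1. None of the 10 pluripotency genes had a region called with both antibodies within 20 kb. The share of all protein-coding genes with such a region was not determined. METTL3 peaks lay within 20 kb of only 0.712% to 1.15% of them in the METTL3 libraries, so an absence at 10 genes is near the background. Further METTL14 peaks inside Jarid2, near its boundary with the lower coordinate, were called in control replicate 2 (44731039 to 44731187) and CKO replicate 1 (44730833 to 44730981 and 44733787 to 44733935).

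Genes of later stages were marked as follows, as a description. Of 15 genes of the formative and primed states and early lineages, 6 and 6 had a METTL14 peak within 20 kb in the controls (16.3% and 18.8% of all protein-coding genes) and 7 and 5 in the CKO libraries (21.3% and 8.61%), and 4 had one in all 4 libraries, namely Eomes, Otx2, Zic2 and Grhl2. Of the 11 Otx, Zic and Pou3f genes, 8 had a METTL14 peak within 20 kb in all 4 METTL14 libraries, where 2 of the 10 pluripotency genes and 4 of the 39 other network genes did (4.89% of all protein-coding genes). Some of the 11 Otx, Zic and Pou3f genes are neighbours or overlap, so 1 peak can count for more than 1 of them. The 8 genes are therefore not all separate sites. The difference between these lists was not tested, and some genes belong to more than 1 list.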
